A study of Mus musculus with 5 samples.

Results

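The clustered protocadherin genes of the mouse lie in 3 adjacent clusters, alpha (Pcdha), beta (Pcdhb) and gamma (Pcdhg). Their RNA polymerase II occupancy was read in the window from 37080001 to 38010000 of chromosome 18, in the deposited coordinates, which were taken as mouse build mm9. The window was defined by position and not from measured values, though earlier results of these data were known. It holds 186 of the 528385 bins of 5 kb that tile the genome. Chromatin came from 5 dissected organs of adult FVB mice (brain, lung, kidney, spleen and liver), with no treatment or engineered allele named, and was immunoprecipitated with an Abcam antibody against RNA polymerase II. Each tissue is 1 library, so no difference between tissues has a replicate check, and no test or p-value is given. Fewer cells with polymerase at these genes and less polymerase per cell cannot be told apart in whole tissue. The labels do not say how many animals each library came from.

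Clustered protocadherins are cell-surface adhesion proteins of the cadherin family, best known in neurons, where the set of isoforms a cell displays gives it an identity used in dendrite self-avoidance and wiring. In the alpha and gamma clusters each variable exon has its own promoter, and transcription from a chosen promoter runs on to a shared set of constant exons, to which the variable exon is spliced. The alternate exons are chosen in combinations that differ between cells, whereas the C-type exons at the end of both clusters are used more uniformly; Pcdhac2 is known for serotonergic axon tiling, Pcdhgc3 for dendrite arborization and Pcdhgc4 for neuronal survival. The beta genes consist of a single coding exon each and have no constant exons.

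In the RefSeq gene table of assembly GRCm38.p6, used only for names and order, the alpha cluster has 14 genes, of which 12 are alternate and 2 are C-type, Pcdhac1 and Pcdhac2. The beta cluster has 22 genes. The gamma cluster has 22 entries, made up of 12 of the A type, 7 of the B type including a pseudogene, and 3 of the C type, Pcdhgc3, Pcdhgc4 and Pcdhgc5. Slc25a2, a mitochondrial ornithine carrier, and Taf7, a subunit of the general transcription factor TFIID, stand between Pcdhb22 and Pcdhga1, and the formin gene Diaph1 follows the gamma cluster. No annotation of the files' build was used, so segments were placed from general knowledge of the mm9 locus and rounded to 5 kb, and no peak is assigned to a single gene. On chromosome 18, the alpha alternate exons were read from 37090001 to 37185000, the alpha C-type stretch to 37325000 and the alpha constant exons to 37350000. The beta cluster was read from 37420001 to 37685000. The gamma alternate exons were read from 37820001 to 37930000, the gamma C-type stretch to 37985000 and the gamma constant exons to 38005000, where the last 5 kb may reach into Diaph1. For lack of an annotation, genes that mark each tissue were not read, and the tissue labels were not checked against them.

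The libraries held 10292262 listed reads in brain, 10846976 in lung, 13786536 in kidney, 13283124 in spleen and 14964934 in liver. Density is given as 5′ ends of reads per kb and per 1000000 listed reads (RPKM), with exact Poisson 95% intervals. These intervals cover counting error only, since the reads carry no molecular identifiers and need not come from separate molecules. The median 5 kb bin of the genome had a density of 0.253 in brain, 0.277 in lung, 0.29 in kidney, 0.361 in spleen and 0.307 in liver. Scaling the libraries on reads in peak regions instead of all reads moves every log2 value by -0.33 in brain, -0.39 in lung, 0.01 in kidney, 0.66 in spleen and 0.03 in liver, so comparisons with spleen depend most on this choice.

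The gamma cluster had the highest polymerase density of the 3 clusters in all 5 libraries. Brain and lung were highest there, kidney was intermediate, and liver and spleen were lowest, though spleen lay above kidney and lung with scaling on peak regions. The alpha cluster stood above the genome's median bin in brain alone, and the beta cluster stood above it in no library. Read counts in the gamma cluster of 185 kb were 1848 in brain, 1701 in lung, 1311 in kidney, 1101 in spleen and 1048 in liver. The matching densities were 0.971 in brain (0.927 to 1.02), 0.848 in lung (0.808 to 0.889), 0.514 in kidney, 0.448 in spleen and 0.379 in liver. The intervals of brain and lung did not overlap, and brain was 1.14 times lung (95% interval 1.07 to 1.22). Brain was 1.89 times kidney, 2.56 times liver and 2.17 times spleen in this cluster, the last falling to 1.09 with scaling on peak regions. Lung was 1.65 times kidney, 2.24 times liver and 1.89 times spleen, the last turning to 0.914 with scaling on peak regions.

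**Figure D1:**
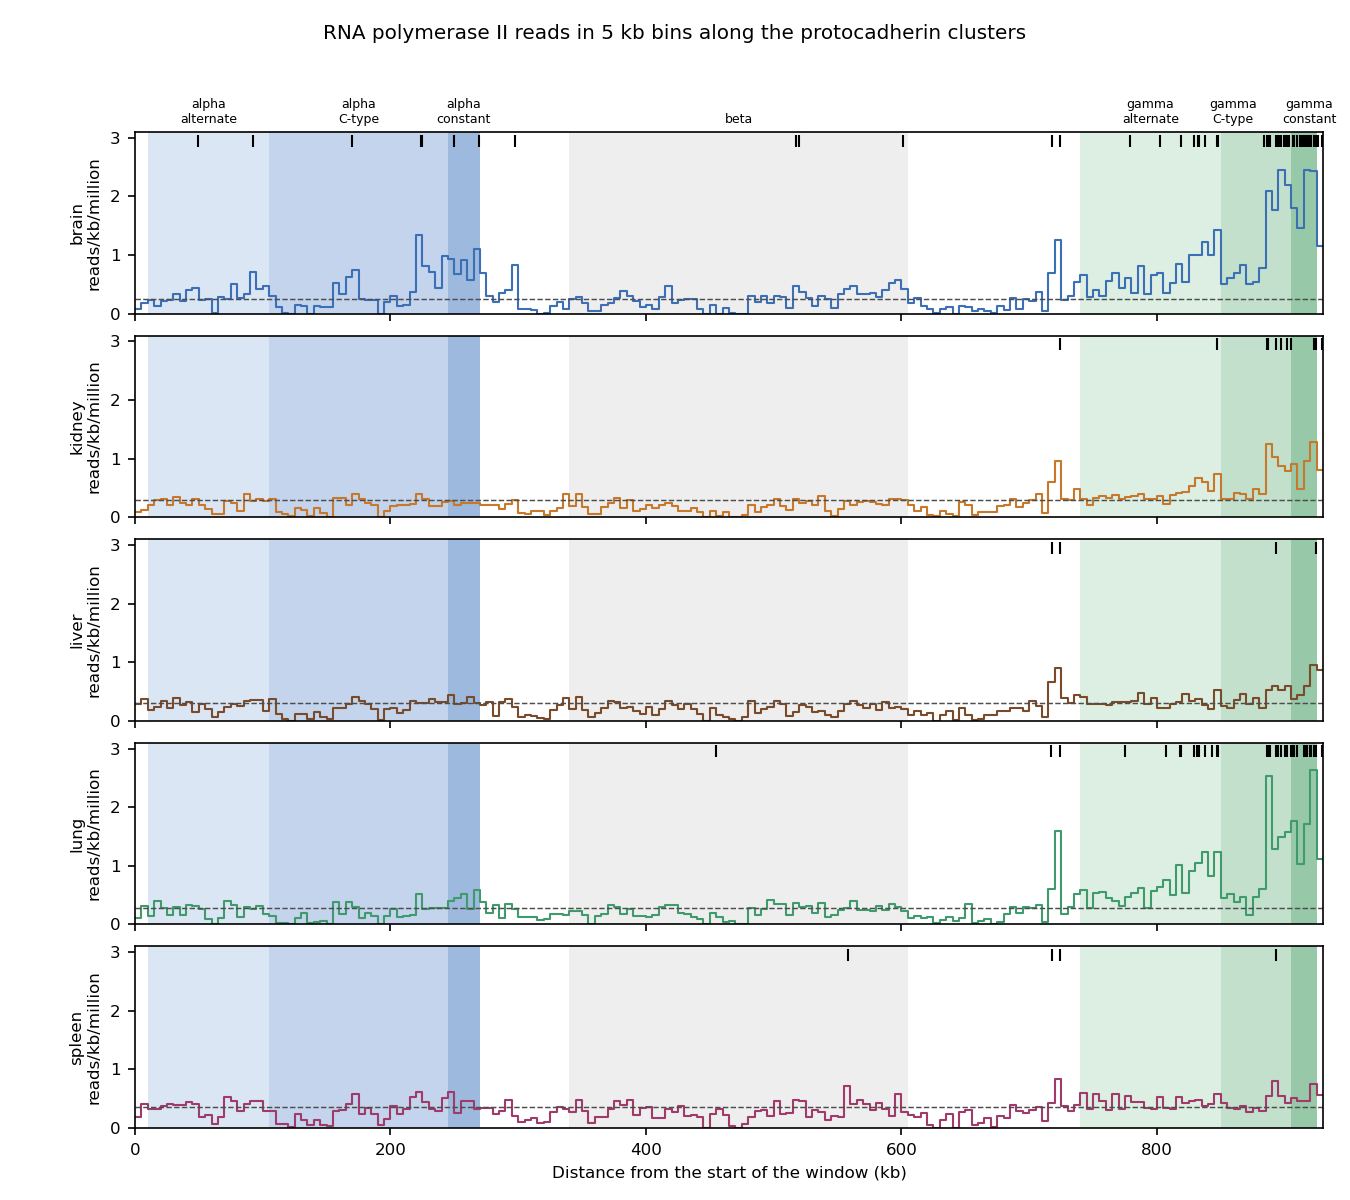
Density of 5′ ends in 5 kb bins (RPKM, vertical axis) against distance from the start of the window in kb, with 1 panel per tissue. Shading marks the segments, the dashed line the median bin of the genome in that library, and black ticks the merged peak regions in which the tissue has a listed peak; the highest bins lie in the gamma C-type and constant segments of brain and lung, up to 2.45 and 2.64.

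In the alpha cluster of 260 kb, counts were 1015 reads in brain, 622 in lung, 771 in kidney, 1065 in spleen and 920 in liver. Densities were 0.379 in brain (0.356 to 0.403), 0.221 in lung, 0.215 in kidney, 0.308 in spleen and 0.236 in liver. Relative to the median bin of its own library, the alpha cluster stood at 1.5 times in brain and at 0.797 in lung, 0.741 in kidney, 0.853 in spleen and 0.769 in liver. Brain was 1.23 times spleen, the next highest tissue (1.13 to 1.34), but 0.619 times spleen with scaling on peak regions, so its place above spleen rests on the scaling. Lung, which was close to brain in the gamma cluster, had 0.581 times brain's density here (0.525 to 0.643).

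In the beta cluster of 265 kb, densities were 0.241 in brain, 0.216 in lung, 0.184 in kidney, 0.287 in spleen and 0.2 in liver. Spleen was highest, and brain had 0.839 times its density (0.759 to 0.927), or 0.422 times with scaling on peak regions. All 5 values lay at 0.634 to 0.952 times the library's median bin. The stretch between alpha and beta had 0.867 to 1.02 times the beta density, and the stretch between beta and gamma had 0.825 to 1.21 times. Taken over the whole cluster, the beta genes had about the density of the stretch between alpha and beta. In brain that stretch holds a bin of 0.836, from 37375001 to 37380000. The stretch between beta and gamma includes the bin from 37800001 to 37805000, which had a listed peak in every tissue and densities of 0.828 to 1.6. This bin raises the second ratio, which was not recomputed without it.

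Ratios between clusters within a library need no scaling between libraries. They do compare different sequence, and how readily reads align to each cluster was not measured. Gamma over alpha was 2.56 in brain (2.37 to 2.77), 3.84 in lung (3.5 to 4.22), 2.39 in kidney (2.18 to 2.62), 1.45 in spleen (1.33 to 1.58) and 1.6 in liver (1.46 to 1.75). Lung's interval lay above the other 4, and those of brain and kidney overlapped. Gamma over beta was 4.04 in brain, 3.92 in lung, 2.79 in kidney, 1.56 in spleen and 1.9 in liver, and the intervals of brain and lung overlapped (3.69 to 4.42 and 3.57 to 4.3). Alpha over beta was 1.58 in brain (1.43 to 1.74) and 1.02 in lung, 1.17 in kidney, 1.08 in spleen and 1.18 in liver, so brain's interval lay above those of the other 4, of which the highest bound was 1.3. Subtracting the genome's median bin first raised gamma over alpha to 5.67 in brain. Bins with under 20 reads summed numbered 6 in alpha, 5 in beta and 0 in gamma. Without them gamma over alpha was 2.28 in brain, 3.41 in lung, 2.14 in kidney, 1.31 in spleen and 1.43 in liver. Gamma over beta was then 3.67 in brain and 3.56 in lung.

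**Figure D2:**
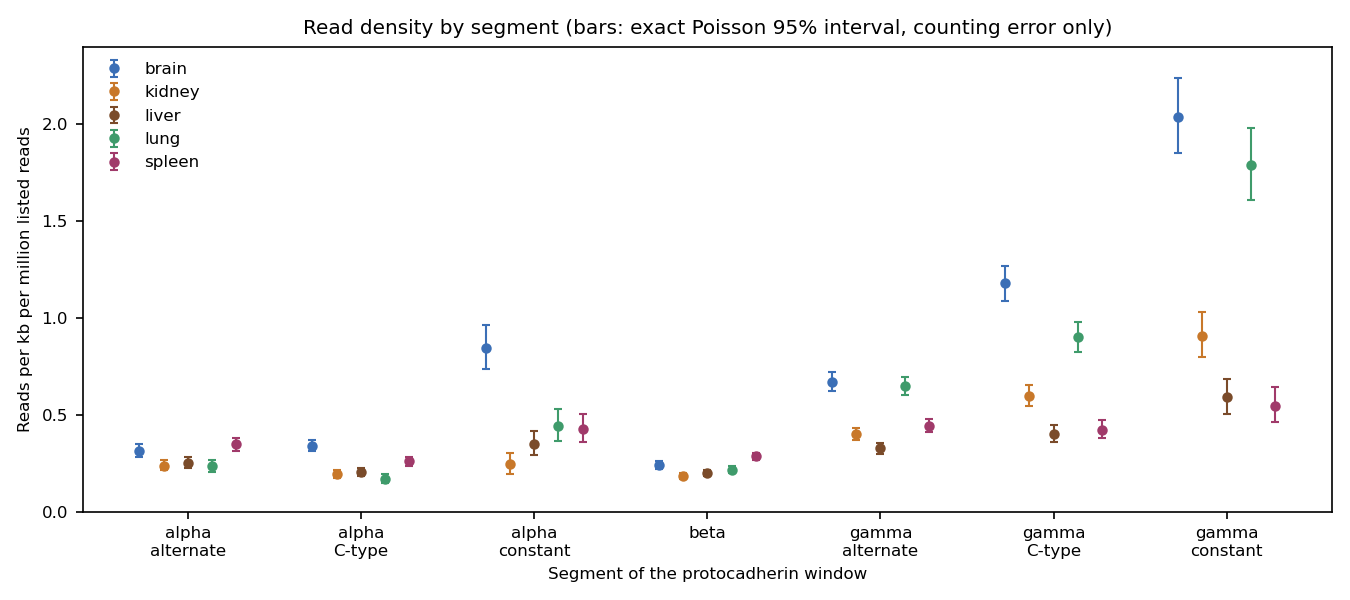
Read density (RPKM, vertical axis) in 7 segments of the window for the 5 tissues, 1 library each; bars are exact Poisson 95% intervals of the count. Brain is highest in the alpha constant exons at 0.843, though level with spleen if scaled on peak regions, and brain and lung stand together in the gamma constant exons at 2.04 and 1.79.

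Averaged over whole segments, the brain signal in the alpha cluster was densest at the constant exons and lower over the alternate and C-type exons. The end of the C-type stretch was not lower. Its bin from 37300001 to 37305000 had 1.34 in brain, against at most 1.11 in a bin of the constant exons. The C-type average includes 5 bins, of 28, with under 20 reads summed. The alpha constant exons held 217 reads in brain, 120 in lung, 85 in kidney, 142 in spleen and 131 in liver. Their densities were 0.843 in brain (0.735 to 0.963), 0.443 in lung, 0.247 in kidney, 0.428 in spleen and 0.35 in liver. By all listed reads, brain was highest in 5 of the 5 bins of this segment. That count was not set against the genome or recomputed with scaling on peak regions. Over the segment brain was 1.91 times lung (1.52 to 2.4), 3.42 times kidney, 2.41 times liver and 1.97 times spleen, the last becoming 0.993 with scaling on peak regions. The alpha alternate exons had densities of 0.315 in brain, 0.236 in lung, 0.238 in kidney, 0.347 in spleen and 0.254 in liver. Brain in these exons stood at 1.25 times its median bin and the other tissues at 0.821 to 0.961 times theirs. It was 1.34 times lung (1.13 to 1.59), 1.32 times kidney (1.13 to 1.55) and 1.24 times liver (1.06 to 1.45), the last 2 becoming 1.04 and 0.965 with scaling on peak regions. Brain was 0.908 times spleen, with an interval of 0.782 to 1.05 that includes 1, and 0.457 times spleen with scaling on peak regions. The C-type stretch of alpha had 0.34 in brain, 0.171 in lung, 0.194 in kidney, 0.261 in spleen and 0.204 in liver, where brain was 1.3 times spleen but 0.656 times with scaling on peak regions.

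The ratio of constant to alternate exon density in alpha was 2.68 in brain (2.24 to 3.2), 1.88 in lung (1.5 to 2.34), 1.04 in kidney (0.805 to 1.32), 1.23 in spleen (1.01 to 1.49) and 1.38 in liver (1.12 to 1.69). Brain's interval overlapped lung's alone, and kidney's was the only interval to include 1. With the genome's median bin subtracted the brain ratio became 9.47, since little of its alternate exon density lay above that bin. Constant over C-type density was 2.48 in brain, 2.59 in lung, 1.27 in kidney, 1.64 in spleen and 1.71 in liver, so by this denominator lung was level with brain. C-type over alternate density was 1.08 in brain (0.934 to 1.25), 0.723 in lung (0.605 to 0.865), 0.813 in kidney, 0.751 in spleen and 0.805 in liver.

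Averaged over whole segments, density in the gamma cluster rose from alternate to C-type to constant exons in brain, lung, kidney and liver. In spleen the C-type stretch was no higher than the alternate exons. The rise was not steady along the cluster. In blocks of 25 kb, brain had 1.13 at the end of the alternate exons, 0.63 in the first C-type block and 1.53 in the next. The same blocks had 1.05, 0.395 and 1.28 in lung, 0.601, 0.351 and 0.804 in kidney, and 0.345, 0.315 and 0.452 in liver. The gamma alternate exons had densities of 0.672 in brain, 0.65 in lung, 0.401 in kidney, 0.442 in spleen and 0.327 in liver. Brain and lung did not differ beyond counting error there, at 1.03 times (0.935 to 1.15), and with scaling on peak regions both lay below spleen, at 0.765 and 0.71 times. The gamma C-type stretch, which holds the Pcdhgc3, Pcdhgc4 and Pcdhgc5 exons, had 1.18 in brain, 0.902 in lung, 0.597 in kidney, 0.424 in spleen and 0.403 in liver. Here brain was 1.31 times lung (1.17 to 1.47), and by all listed reads it was highest in 10 of 11 bins. That count was not set against the genome or recomputed with scaling on peak regions. In this stretch brain was 2.78 times spleen, lung 2.13 times and kidney 1.41 times. With scaling on peak regions these became 1.4, 1.03 and 0.898. The gamma constant exons held 419 reads in brain, 388 in lung, 250 in kidney, 145 in spleen and 177 in liver. Their densities were 2.04 in brain (1.85 to 2.24), 1.79 in lung (1.61 to 1.98), 0.907 in kidney, 0.546 in spleen and 0.591 in liver. Brain and lung overlapped, at 1.14 times (0.989 to 1.31), and brain was 2.25 times kidney, 3.44 times liver and 3.73 times spleen. Both remained above spleen with scaling on peak regions, brain at 1.88 times and lung at 1.58 times. Set against the median bin of each library, the gamma constant exons stood at 8.06 times in brain, 6.47 in lung, 3.13 in kidney, 1.51 in spleen and 1.92 in liver.

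Constant over alternate exon density in gamma was 3.03 in brain (2.68 to 3.42), 2.75 in lung (2.43 to 3.11), 2.26 in kidney (1.94 to 2.62), 1.23 in spleen (1.02 to 1.48) and 1.81 in liver (1.52 to 2.14). Brain and lung overlapped, and brain lay above kidney, liver and spleen without overlap. Kidney, whose alpha ratio was 1.04, thus had a gamma ratio well above 1. The order of the tissues changed when the genome's median bin was subtracted. Constant over alternate density was then 4.25 in brain, 4.05 in lung, 5.57 in kidney, 2.28 in spleen and 14.2 in liver. The gamma alternate exons of liver stood at only 1.07 times its median bin. C-type over alternate density was 1.76 in brain, 1.39 in lung, 1.49 in kidney, 0.96 in spleen and 1.23 in liver. After the same subtraction it was 2.21 in brain, 1.68 in lung, 2.77 in kidney, 0.78 in spleen and 4.79 in liver. Constant over C-type density was 1.72 in brain, 1.98 in lung, 1.52 in kidney, 1.29 in spleen and 1.47 in liver. The last gamma bin, which may reach into Diaph1, adds to these ratios. Without it constant over C-type density was 1.61 in brain, 1.67 in lung, 1.31 in kidney, 1.12 in spleen and 1.17 in liver. Constant over alternate density was then 2.83 in brain, 2.32 in lung, 1.95 in kidney, 1.08 in spleen and 1.44 in liver.

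**Figure D3:**
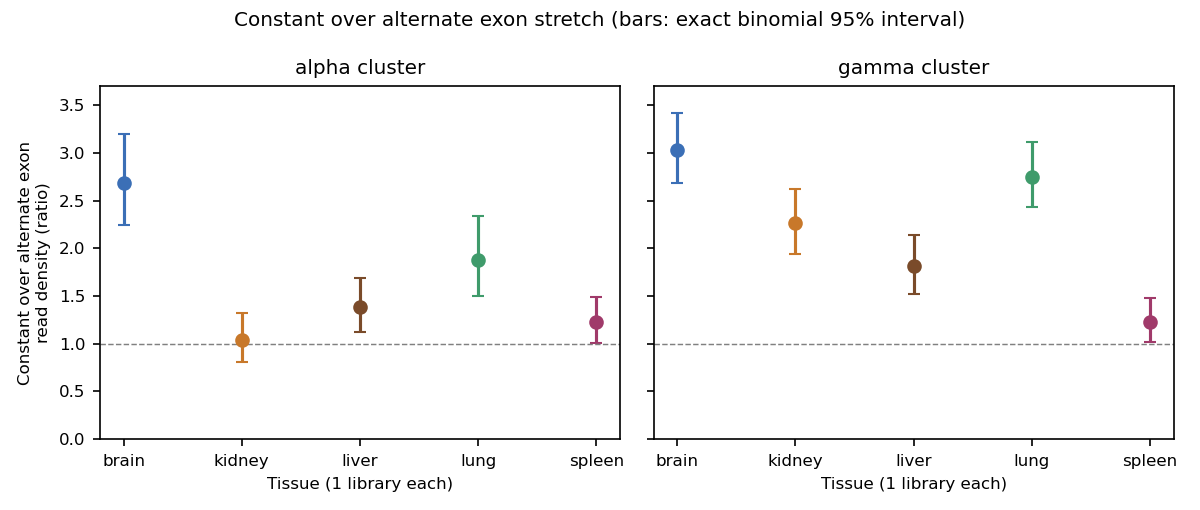
Ratio of constant to alternate exon read density (vertical axis, no unit) in the alpha and gamma clusters for each tissue, 1 library each; bars are exact binomial 95% intervals and the dashed line is a ratio of 1. Brain is at 2.68 in alpha and 3.03 in gamma, lung at 1.88 and 2.75, and spleen at 1.23 in both.

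Among the gamma alternate exons themselves, density also differed along the stretch in some tissues, in a comparison added after the data were seen. The last 55 kb of these exons had 1.7 times the density of the first 55 kb in brain (1.46 to 1.97), 1.85 in lung (1.59 to 2.15), 1.4 in kidney (1.19 to 1.66), 0.97 in spleen (0.828 to 1.13) and 1 in liver (0.845 to 1.19). Brain, kidney and lung were thus higher towards the C-type exons, and liver and spleen were level. In the beta cluster the last 130 kb had 1.72 times the density of the first in brain, 1.5 in lung, 1.4 in kidney, 1.22 in spleen and 1.13 in liver. Among the alpha alternate exons the same ratio over stretches of 45 kb was 1.34 in brain (1.06 to 1.7) and 0.859 in lung, 0.864 in kidney, 0.958 in spleen and 0.933 in liver, where the intervals of these other 4 included 1.

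The bin from 37800001 to 37805000 of chromosome 18, between beta and gamma, had a listed peak in every tissue. It gives a reference within the window that does not rest on library totals, but its own occupancy is not known to be equal between tissues. It held 65 reads in brain, 87 in lung, 66 in kidney, 55 in spleen and 68 in liver, or densities of 1.26, 1.6, 0.957, 0.828 and 0.909 in that order. Whether it belongs to Slc25a2, Taf7 or neither was not read. The gamma constant exons had 1.61 times its density in brain (1.24 to 2.13), 1.11 in lung (0.882 to 1.42), 0.947 in kidney, 0.659 in spleen and 0.651 in liver. Against this bin the intervals of brain and lung overlapped, as they did with library totals. The alpha constant exons had 0.668 times its density in brain (0.504 to 0.895), 0.276 in lung, 0.258 in kidney, 0.516 in spleen (0.376 to 0.718) and 0.385 in liver, so brain overlapped spleen and, narrowly, liver (0.285 to 0.524), and did not overlap lung or kidney.

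Bins of 5 kb that set a tissue apart were few. A bin was called for a tissue when its density was at least 2 times that of each other tissue, among bins with at least 60 reads summed over the 5 libraries, which 131 of the 186 bins had. Of the rest, 16 bins had under 20 reads summed, and 2 of these had none. Brain led 2 bins of the window, against 2.35% of such bins in the genome, which at this fold is no more than the background. At 1.5-fold brain led 17 of the 131 bins, against 5.78% in the genome. Lung led 1 bin, against 0.419%. Kidney, liver and spleen led 0 bins, against 0.678%, 0.992% and 0.546%. Brain and lung both stood at least 2-fold above each of the other tissues in 2 bins, both in the gamma cluster, against 0.0814% in the genome. That pair rule and the 25 kb blocks described next were added after the data were seen.

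The bins led by brain were 37300001 to 37305000, at the end of the alpha C-type stretch, and 37375001 to 37380000, between alpha and beta. The former held 69 reads in brain, 28 in lung, 28 in kidney, 41 in spleen and 23 in liver. The latter held 43 reads in brain, 14 in lung, 20 in kidney, 14 in spleen and 18 in liver. Densities of these bins were 1.34 and 0.836 in brain against at most 0.617 and 0.29 in the other libraries, a gap that the calling rule required. The bins led by brain and lung together were 37915001 to 37920000 among the gamma alternate exons and 37990001 to 37995000 in the gamma constant exons. Reads in the former were 63 in brain, 67 in lung, 42 in kidney, 25 in spleen and 20 in liver. Reads in the latter were 75 in brain, 56 in lung, 33 in kidney, 31 in spleen and 33 in liver. The bin led by lung, 37885001 to 37890000 among the gamma alternate exons, held 18 reads in brain, 41 in lung, 16 in kidney, 23 in spleen and 16 in liver. With scaling on peak regions brain led 0 bins, and brain and lung together led 0.

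In wider blocks of 25 kb, called at 1.5-fold with at least 300 reads summed, 27 of 37 blocks of the window could be tested. Brain led 3 of them, against 5.64% of blocks in the genome, lung led 0, against 1.15%, and brain and lung together led 3, against 0.334%. The blocks of brain spanned the end of the alpha C-type stretch and the constant exons, from 37305001 to 37355000, and the first C-type block of gamma, from 37930001 to 37955000. In the alpha block from 37305001 to 37330000, reads were 201 in brain, 81 in lung, 85 in kidney, 145 in spleen and 132 in liver. The blocks of the pair ran from 37905001 to 37930000 and from 37955001 to 38005000, which are the last alternate exons of gamma, the later C-type stretch and the constant exons. In the last of these, from 37980001 to 38005000, reads were 532 in brain, 473 in lung, 305 in kidney, 173 in spleen and 222 in liver. Scaling on peak regions left 0 of these blocks to brain or to the pair, and spleen was then at least 1.5-fold above each other tissue in 17 of 27, against 58.1% of blocks in the genome.

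The highest bins of the window lay in the gamma C-type and constant segments, in the bin between beta and gamma described above and, in liver, in the last bin of the window. The bin from 38000001 to 38005000, at the end of the constant exons, was among the 3 highest in every library, with 125 reads in brain, 143 in lung, 88 in kidney, 50 in spleen and 71 in liver. The bin from 37995001 to 38000000 reached a density of 2.45 in brain, against 1.71 in lung, 0.957 in kidney, 0.452 in spleen and 0.601 in liver. The C-type bin from 37975001 to 37980000 likewise reached 2.45 in brain, against 1.49 in lung. The C-type bin from 37965001 to 37970000 was higher in lung than in brain, at 2.53 against 2.1, with 1.25 in kidney, 0.521 in liver and 0.542 in spleen.

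The authors' peak lists give positions alone, called per library, and their lengths differ, with 91712 positions in brain, 72971 in lung, 81375 in kidney, 31594 in spleen and 57816 in liver. The window held 54 positions in brain, 39 in lung, 12 in kidney, 4 in spleen and 4 in liver. Per 100 kb this was 5.81 in brain and 4.19 in lung, above the averages of 3.47 and 2.76 over their whole lists, and 1.29 in kidney, 0.43 in liver and 0.43 in spleen, below their averages of 3.08, 2.19 and 1.2. The gamma cluster held 38 positions in brain, 35 in lung, 10 in kidney, 1 in spleen and 2 in liver. In the gamma constant exons alone, brain had 14 positions and lung 13, which is 70 and 65 per 100 kb, whereas kidney had 3, liver 1 and spleen 0. The alpha cluster held 7 positions in brain and 0 in each other tissue, and the 7 amount to 2.69 per 100 kb, below the average of 3.47 over the brain list. The beta cluster held 3 in brain, 1 in lung and 1 in spleen.

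**Figure D4:**
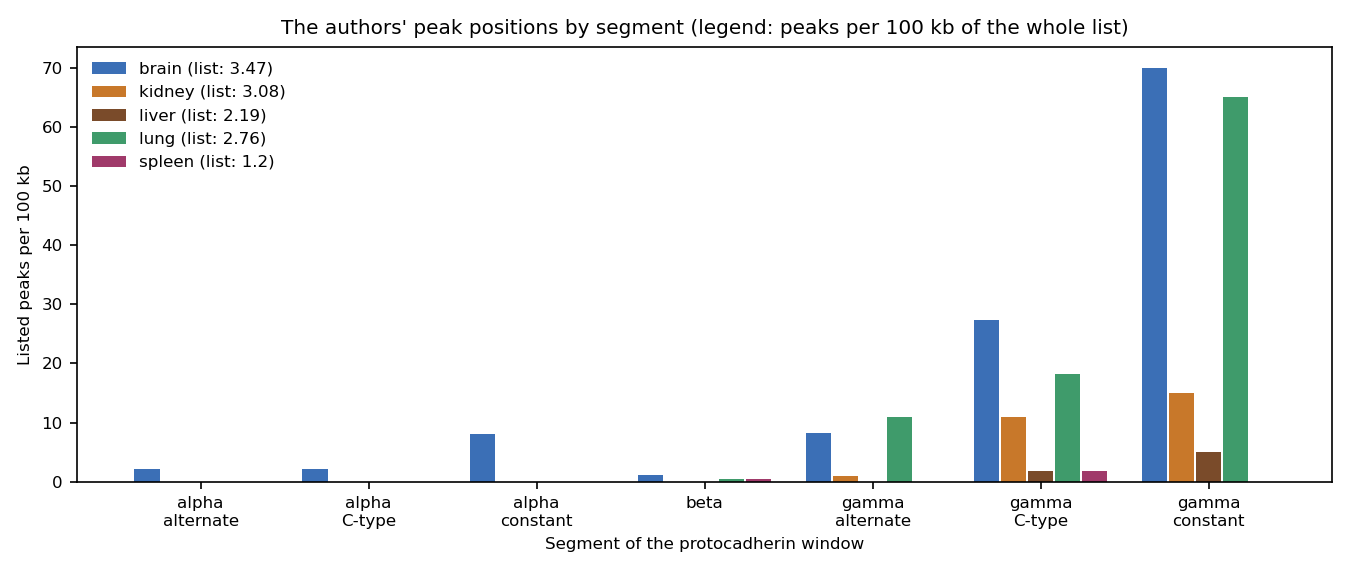
Listed peak positions per 100 kb (vertical axis) in 7 segments for each tissue, with the average of the whole list of that tissue in the legend. Brain and lung reach 70 and 65 per 100 kb in the gamma constant exons, and the alpha segments hold peaks of brain alone.

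Extending each position by 250 bp to both sides and merging over tissues gave 60 regions, of which 42 lay in the gamma cluster. Brain had a peak in 35 of these and lung in 31, and 24 carried both, which is 68.6% of the brain regions and 77.4% of the lung regions. Over the whole genome the 2 tissues shared 35% of the brain regions and 44.4% of the lung regions. Peaks were denser in the gamma cluster, at 20.5 per 100 kb in brain and 18.9 in lung, against 3.47 and 2.76 over the lists. Sharing was not compared at matched peak density. Brain alone had 11 of the gamma regions and lung alone had 6. Kidney had 9, of which 9 were also lung regions and 8 were brain regions, where 44.2% and 40.5% of kidney regions were shared with these tissues over the genome. The 7 alpha regions had a peak in brain alone, but their reads were few. The highest, from 37303471 to 37303971 in the C-type stretch, held 17 reads in brain, 9 in lung, 5 in kidney, 2 in spleen and 2 in liver. The lowest, from 37304721 to 37305221, held 4 in brain and 7 in spleen, so the absence of a listed peak there does not show fewer reads.

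Among the gamma regions, the one from 37972441 to 37973301 in the C-type stretch had a peak in all 5 tissues. It held 38 reads in brain, 37 in lung, 35 in kidney, 26 in spleen and 19 in liver. The region from 38004101 to 38005301, at the end of the constant exons, had a peak in every tissue except spleen, with 34 reads in brain, 28 in lung, 24 in kidney, 18 in spleen and 25 in liver. Per 1000000 listed reads (RPM) this region had 3.3 in brain and 2.58 in lung against 1.36 to 1.74 in the others. In 3 other C-type regions the libraries lay further apart. The one from 37965586 to 37966536 held 40 reads in brain, 51 in lung, 28 in kidney, 8 in spleen and 15 in liver. The one from 37966551 to 37968116 held 33 in brain, 49 in lung, 33 in kidney, 9 in spleen and 10 in liver. The one from 37980901 to 37982586 held 43 in brain, 33 in lung, 32 in kidney, 11 in spleen and 19 in liver. By RPM, lung was highest in the first pair, brain was highest in the last, and liver and spleen were the lowest in all 3. Of the 42 gamma regions, brain had the highest RPM in 24, made up of 5 of 14 among the alternate exons, 10 of 14 in the C-type stretch and 9 of 14 in the constant exons. Lung was highest in the other 18, and kidney, liver and spleen in 0. All 42 regions had a listed peak in brain or lung, so the 0 for the other tissues was largely set by how the regions were formed. The split between brain and lung was partly set in the same way, since 11 regions had a peak in brain alone and 6 in lung alone. With scaling on peak regions brain was highest in 21, lung in 17 and spleen in 4.

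**Figure D5:**
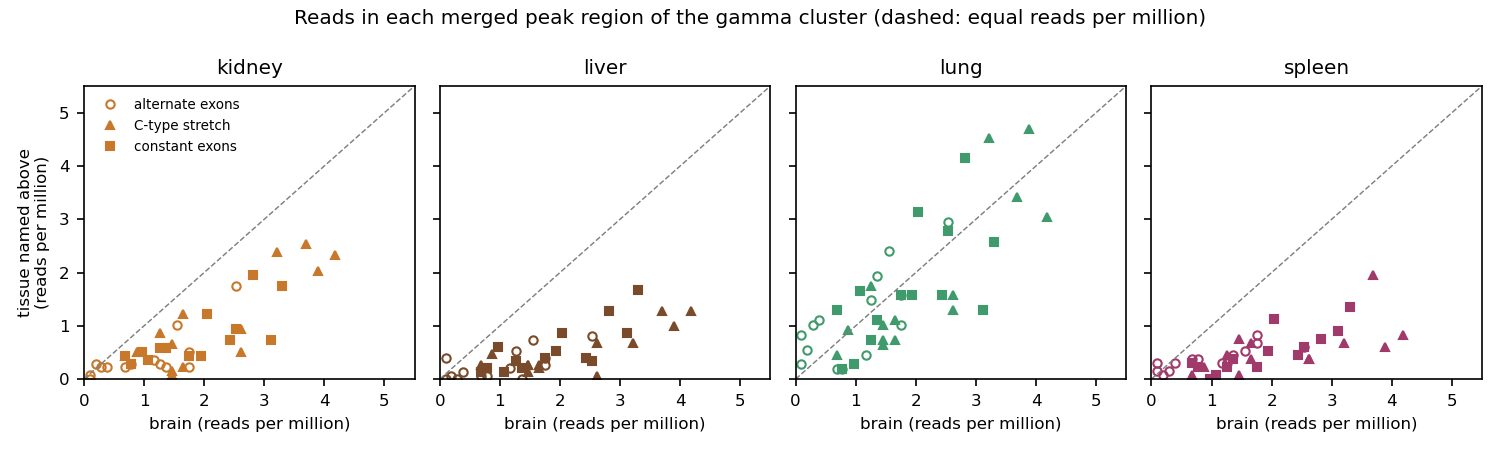
Reads per 1000000 listed reads (RPM) in the 42 merged peak regions of the gamma cluster, brain on the horizontal axis and the tissue named above each panel on the vertical axis; the dashed line is equality and symbols give the segment. Lung points fall on both sides of the line, reaching 4.7, and no region is highest in kidney, liver or spleen, though spleen leads 4 with scaling on peak regions.

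A region in the beta cluster, from 37638151 to 37638651, was led by spleen, with 21 reads there against 3 in brain, 2 in kidney, 3 in liver and 3 in lung, a 5.42-fold difference from the next tissue. Those 21 reads came from 9 distinct positions and strands. A brain region between alpha and beta, from 37377376 to 37377876, was chosen after its values were seen. It held 18 reads in brain, 2 in lung, 3 in kidney, 3 in spleen and 4 in liver.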

How the data were processed

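The authors deposited, for each tissue, aligned reads with coordinates and strand, and peak positions with no score. Bowtie is the aligner named, per the submitters' processing notes. Its version and settings, the build and the peak caller were not given in the sources used here, and no control library was used. Reads of 34 to 36 bases were kept, and their 5′ ends were counted in 5 kb bins. Counts were divided by length and by all listed reads, because bins in this window hold mostly reads outside peaks; 8222 regions with peaks gave the alternative scaling. Intervals are exact Poisson or, for ratios, exact binomial (Clopper-Pearson); counts under 3 were set to 3 in folds of bins. The members, segments and comparisons were chosen with earlier results of these data known. Named were all segments, the 3 highest bins and regions per tissue, called bins, regions with peaks in 4 or 5 tissues, and regions led 4-fold by 1 tissue with at least 20 reads. Bin calling was tested on simulated data. The tools were SciPy 1.17.1, pandas 2.3.3 and NumPy 2.4.6 under Python 3.11.15, with Matplotlib 3.10.9 for plots.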

Additional observations from a re-analysis of the deposited data

How the results depend on the processing

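Of 564 values recomputed for 81 results, 4 turned direction from a value whose interval excluded 1, all with scaling on peak regions; 5 ratios within a library whose interval included 1 also crossed 1. These were brain over the next tissue in alpha (0.619), brain over the highest of kidney, liver and spleen in the alpha constant exons (0.993) and the gamma alternate exons (0.765), and lung over those 3 tissues in the gamma alternate exons (0.71). Brain over the next tissue in beta moved to 0.422 with the same scaling. With the genome's median bin subtracted, brain over the next tissue in gamma was 1.26 and gamma over alpha was 5.67 in brain. Constant over alternate density was then 9.47 in alpha of brain, 4.25 in gamma of brain and 4.05 in gamma of lung. In gamma of kidney and liver it was 5.57 and 14.2, both above brain. That subtraction gave no value for brain over the next tissue in alpha and beta, or for constant over alternate exons of alpha and gamma over alpha in lung, where a term was not above the median. Constant over alternate density of gamma in lung was 2.42 without the highest bin of each segment and 2.32 without the last gamma bin. Gamma over alpha in lung was 3.5 without the highest bins and 3.41 without bins under 20 reads, which gave 2.28 in brain. Bins led by brain numbered 17 at 1.5-fold (5.78% in the genome), 0 at 3-fold (0.565%), 0 with scaling on peak regions (0.415%) and 4 with bins offset by 2.5 kb (2.36%). Those led by brain and lung numbered 16 (0.632%), 0 (0.00459%) and 0 (0.0041%) under the first 3 of these, and 1 (0.0756%) when reads sharing a position and strand counted as 1. Leaving out low bins and the last gamma bin was chosen after seeing the data. Thinning to the smallest library left all 25 values it was run on within their counting intervals. Depth limits single bins and peak regions, which hold few reads each. No paired analysis was possible because each tissue is 1 library and the labels give no replicate numbers.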
